A study of Ziziphus jujuba with 15 samples.

Results

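NAC transcription factors are a plant-specific family named after the NAM, ATAF and CUC genes. They share a DNA-binding NAC domain at the N-terminus and differ in the C-terminal part, which activates or represses transcription. Members of the family act in leaf senescence, in the response to abscisic acid (ABA, the hormone of water deficit) and in the response to drought, salt and heat. Described here are 6 NAC genes of jujube (Ziziphus jujuba) out of 32876 genes in the FPKM table, where FPKM relates the fragments counted on a gene to its length and to the size of the library. They are gene11515, gene13222, gene14349, gene20442, gene29940 and gene880. These are the NAC genes that the study lists as higher after 1 d of heat in the same libraries, so the comparison of 1 d with 0 d was no independent test of them. The later comparisons with 0 d use the same control libraries and are not independent of that choice either.

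The plants were seedlings of the cultivar labelled HS-Haoqing1, called ‘HS’, which the study describes as heat sensitive. They were rooted from green stem cuttings, and leaves were taken from unheated plants (0 d) and after 1, 3, 5 and 7 d of heat stress. Each time point had 3 libraries, named a, b and c, and all 15 libraries were used. No other genotype or agent was involved, the 0 d plants are the only controls, and there was no unheated control at the later days, so time in the experiment and heat cannot be told apart. Levels in whole-leaf RNA do not separate fewer cells of a type from less RNA per cell.

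The 6 genes carry the annotations given in the study's tables, and the roles below are those of the Arabidopsis genes of the same name. Gene20442 (LOC107428947) is annotated as NAC027, with NAC29 as its closest Arabidopsis entry. NAC29 is NAP, a promoter of leaf senescence. Gene29940 (LOC107406551) is annotated as NAC72, known in Arabidopsis as RD26, which is induced by dehydration and ABA. Gene14349 (LOC107422350) is NAC19-like and closest to NAC55, and in Arabidopsis both belong with NAC72 to a stress-responsive group. Gene13222 (LOC107421097) is annotated as NAC2, which matches Arabidopsis ATAF1, a factor of the ABA and stress response. Gene11515 (LOC107419222) is NAC100-like. Gene880 (LOC107416163) is annotated as NAC74 with NAC86 as its Arabidopsis entry, and NAC86 takes part in the loss of the nucleus in phloem sieve elements.

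All 15 libraries carried a leaf profile. Each of 7 chlorophyll a-b binding protein genes, which encode the antenna of the photosystems, stood at 63.1 FPKM or more in every library. Their summed level moved with time, from 7330 to 11791 FPKM at 0 d to 17123 to 20189 at 1 d, 7760 to 12974 at 3 d, 7479 to 8216 at 5 d and 14182 to 16394 at 7 d. The part of this shift in the NAC values was not tested. Between 17371 and 18313 genes reached 1 FPKM in a library, and the depths recovered from the step sizes of weakly expressed genes lay at 0.901 to 1.31 times that of replicate a at 0 d.

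The 3 libraries of a time point were not equally alike. For the pair b and c, r on log2(FPKM + 1) was 0.966 to 0.969 at all time points. The library most like replicate a of 3 d came from 1 d (replicate b, r = 0.935), and that most like replicate a of 7 d came from 5 d (replicate a, r = 0.934). Among the NAC genes, the gap between b and c was smaller than that from a to their mean in 22 of 30 pairs of gene and time point. The median difference was 0.09 between b and c and 0.51 between a and their mean on the log2(FPKM + 1) scale, against 0.13 and 0.27 over all genes tested. At 3 d replicate a lay below the mean of b and c in 5 of 6 genes, and at 7 d it lay above it in 6 of 6. Each of the latter counts rests on a single library a. Neither they nor the 22 of 30 were counted over all genes. The labels give a, b and c no meaning and speak of pooled RNA. The paper's methods describe 3 biological replicates, each of several plants, at 0, 1, 3 and 5 d and do not mention 7 d. Whether b and c are independent samples was not settled from the values. Library codes in the titles number b and c of each time point next to each other and a apart from them. What the codes stand for is not given.

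**Figure D1:**
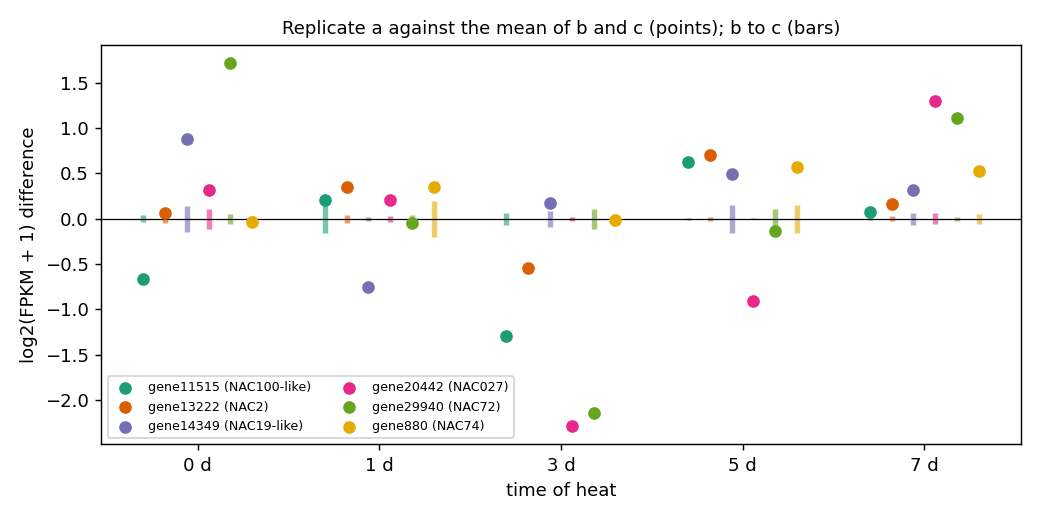
Difference of replicate a from the mean of replicates b and c (points) and the spread from b to c (vertical bars, centred on 0), both on the log2(FPKM + 1) scale, for 6 NAC genes at 5 time points. Replicate a lay below the mean of b and c in 5 of 6 genes at 3 d and above it in 6 of 6 at 7 d.

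Gene20442, the NAC027 gene, had the widest range of FPKM means, as a ratio, after gene29940. Unheated, it stood at 4.07, 3.39 and 2.78 FPKM in replicates a, b and c, and after 1 d at 21.5, 18.1 and 18.9. The 3 d libraries held 9.22, 48.1 and 49.6, those of 5 d 30.6, 58.3 and 58.6, and those of 7 d 16.0, 6.20 and 5.63. Every heated library was thus above the 3 control libraries. Replicate a was far below b and c at 3 d and 5 d and far above them at 7 d. Time point means ran in the order 0, 7, 1, 3 and 5 d, from 3.41 ± 0.645 to 49.2 ± 16.1 FPKM (SD, n = 3), a ratio of 14.4.

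Gene29940, the NAC72 gene, had the widest range of means, with a ratio of 17.9 between 5 d and 0 d that rested on 1 control library (109 without 0 d replicate a). Its control libraries held 2.88, 0.132 and 0.223 FPKM, so replicate a was 16.2 times the mean of b and c before any heat. After 1 d of heat it held 6.97, 7.46 and 7.01, and after 3 d 4.09, 23.3 and 19.8. The 5 d libraries held 18.04, 21.6 and 18.3, and those of 7 d 17.4, 7.63 and 7.34. All heated libraries exceeded all control libraries. The 1 d libraries and the 5 d libraries were tight groups that did not overlap, while the 3 d libraries spanned both.

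Gene14349, the NAC19-like gene, was expressed at a low level. It stood at 1.87, 0.417 and 0.722 FPKM at 0 d, at 3.30, 6.12 and 6.33 at 1 d, and at 3.55, 2.78 and 3.29 at 3 d. The 5 d libraries held 9.20, 5.50 and 7.05, and those of 7 d 2.06, 1.56 and 1.34. The 7 d libraries overlapped the control libraries and lay below those of the other heat days. The order of means was 0, 7, 3, 1 and 5 d, from 1.00 ± 0.767 to 7.25 ± 1.86 FPKM.

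Gene13222, the NAC2 gene, was the most abundant of the 6 by FPKM, with a mean over all libraries that exceeded those of 96.0% of the genes tested. Unheated leaves held 48.2, 47.6 and 44.6 FPKM. The 1 d libraries held 126, 96.1 and 102, those of 3 d 99.4, 145 and 146, those of 5 d 102, 61.1 and 63.2, and those of 7 d 162, 147 and 142. Its order of means, 0, 5, 1, 3 and 7 d, was unlike that of the other genes, with the lowest heated mean at 5 d (75.5 ± 23.1) and the highest at 7 d (151 ± 10.7). The 5 d and 7 d libraries did not overlap.

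Gene11515, the NAC100-like gene, held 2.48, 4.66 and 4.37 FPKM unheated and 21.4, 16.3 and 20.7 after 1 d. The 3 d libraries held 6.76, 17.2 and 18.8, those of 5 d 29.4, 18.8 and 18.6, and those of 7 d 13.2, 12.3 and 12.6. Its 7 d libraries were tight and lay below those of 1 d and 5 d, while at 3 d replicate a fell between the controls and the other heated libraries. The mean rose from 3.84 ± 1.19 at 0 d to 22.3 ± 6.15 FPKM at 5 d.

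Gene880, the NAC74 gene, was the least abundant, with a mean above those of 9.77% of the genes tested. It stood at 0.215, 0.221 and 0.270 FPKM at 0 d, at 1.96, 1.03 and 1.66 at 1 d, and at 1.91, 1.89 and 1.99 at 3 d. The 5 d libraries held 1.81, 0.701 and 1.11, and those of 7 d 1.47, 0.654 and 0.783. No heated library overlapped the controls, and the 3 d libraries were the tightest heated group and the highest by mean, at 1.93 ± 0.0514. The lowest mean was 0.235 ± 0.0303 FPKM at 0 d.

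**Figure D2:**
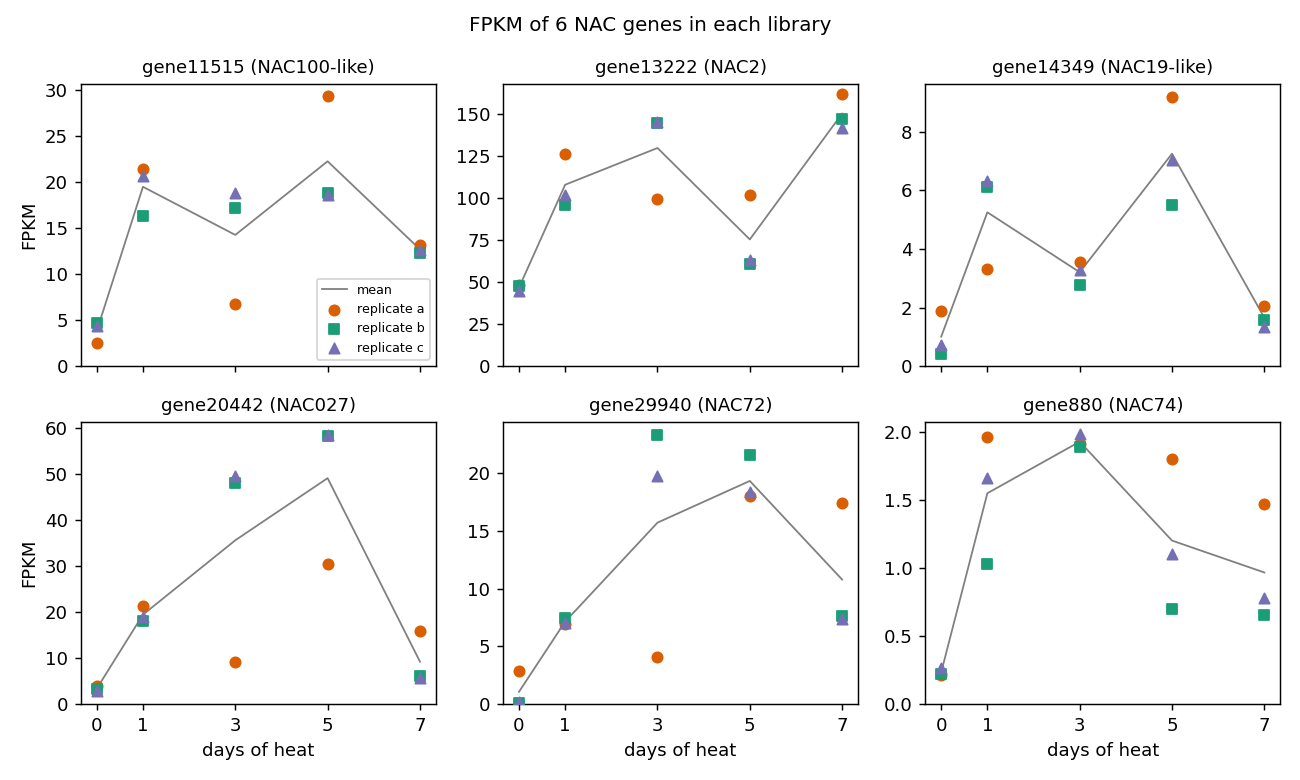
FPKM of each of 6 NAC genes (panels, linear axes from 0) against days of heat. Symbols are the replicates a, b and c and the line joins the means of the 3 libraries. The highest mean was at 5 d in 4 genes, at 3 d in gene880 and at 7 d in gene13222, and replicate a stood apart from b and c at 3 d in gene11515, gene13222, gene20442 and gene29940.

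Levels were compared by limma on log2(FPKM + 1) in 1 fit of the 15 libraries, with p-values adjusted by the Benjamini-Hochberg method over the 19925 genes that reached 1 FPKM in at least 3 libraries, a filter that all 6 NAC genes passed. Calls needed both an adjusted p of at most 0.01 and a fold change of at least 2 on that scale. The 4 comparisons with 0 d share their control libraries, so they are not separate evidence. Fold changes on this scale understate those of low genes such as gene880 and gene14349, and ratios of FPKM means are given beside them.

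At 1 d of heat all 6 NAC genes were higher than at 0 d, against 4.49% of all genes tested that were called higher. This count is a description, since the genes had been listed for it. In FPKM means, gene11515 was 5.08 times, gene13222 2.31 times, gene14349 5.23 times, gene20442 5.71 times, gene29940 6.64 times and gene880 6.59 times the 0 d level. Replicate a of 0 d set some of these ratios, since without it gene29940 stood at 40.3 times and gene14349 at 9.22 times the 0 d level. The median difference of the 6 on the log2(FPKM + 1) scale was 1.89, against 0.04 over all genes tested. In 6 of 6 genes the 1 d and 0 d libraries did not overlap, against 27.1% of all genes in that direction. Gene29940 was nearest to the threshold, with a log2 difference of 2.22 (SE 0.568, limma adjusted p = 0.00953, Benjamini-Hochberg), and it lost the call in 22 of 31 alternative settings. Gene20442 lost its call in 11 of them, gene880 in 8, gene14349 in 4, and gene11515 and gene13222 in 3 each.

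At 3 d the same 6 genes were called higher than at 0 d, against 7.53% of all genes. Gene20442 (log2 difference 2.75, SE 0.535, limma adjusted p = 0.0014) and gene29940 (2.97, SE 0.568, adjusted p = 0.00125) had the largest differences, and their FPKM means were 10.5 and 14.6 times those at 0 d (11.6 and 88.5 times without 0 d replicate a). Without replicate a at 3 d these differences were 3.51 and 3.68. Gene13222 (1.43, SE 0.195, adjusted p = 0.000121) and gene880 (1.25, SE 0.215, adjusted p = 0.00061) had the smallest standard errors. Gene14349 had the smallest difference, 1.13 (SE 0.279, limma adjusted p = 0.00617). It lost the call in 14 of 31 alternative settings (adjusted p from 0.000276 to 0.129). One of these was the fit without replicate a of 3 d and of 7 d (adjusted p = 0.0192). The median over the 6 was 1.50, against 0.12 over all genes, and 31.8% of all genes had 3 d libraries that lay wholly above the 0 d libraries, as 6 of 6 NAC genes did.

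At 5 d, 4 of 6 genes were called higher, against 9.28% of all genes. They were gene29940 (log2 difference 3.53, SE 0.568, limma adjusted p = 0.000296), gene20442 (3.46, SE 0.535, adjusted p = 0.000223), gene11515 (2.27, SE 0.315, adjusted p = 0.000103) and gene14349 (2.08, SE 0.279, adjusted p = 8.07e-05). Gene13222 had a difference of 0.64 (limma adjusted p = 0.0168), which passed neither threshold, and its FPKM mean was 1.61 times that at 0 d. Gene880 passed in p (limma adjusted p = 0.00813) but not in size, with 0.80 on the log2(FPKM + 1) scale, whereas its FPKM means differed 5.11 times. It was called with a pseudocount of 0.1, at 1.87 on that scale (limma adjusted p = 0.00175). The median of the 6 was 2.18, the highest of the 4 comparisons with 0 d, against 0.10 over all genes. The ranges at 5 d and 0 d did not overlap in 6 of 6 genes, against 33.6% of all genes in that direction.

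At 7 d, a time point outside the study's own lists, 3 of 6 genes were called higher than at 0 d, against 4.14% of all genes. These were gene13222 (log2 difference 1.66, SE 0.195, limma adjusted p = 8.47e-05), gene29940 (2.65, SE 0.568, adjusted p = 0.00369) and gene11515 (1.53, SE 0.315, adjusted p = 0.00283). Gene29940 rested in part on replicate a at 7 d, at 17.4 FPKM, and without that library its difference was 2.28 and no longer called (limma adjusted p = 0.0157). It was not called either without 0 d replicate b (2.33, limma adjusted p = 0.0189) or 0 d replicate c (2.39, adjusted p = 0.0181), nor was gene11515 without 0 d replicate a (1.31, adjusted p = 0.0129). Gene20442 had a difference of 1.09 (95% confidence interval −0.07 to 2.25, limma adjusted p = 0.138), gene14349 of 0.46 (−0.14 to 1.07, adjusted p = 0.227) and gene880 of 0.65 (0.18 to 1.12, adjusted p = 0.0344). With a pseudocount of 0.1 gene880 was called (limma adjusted p = 0.00755). In 5 of 6 genes, gene14349 being the exception, the 7 d libraries lay wholly above the controls, against 24.8% of all genes, and the median of the 6 was 1.31 against 0.04.

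**Figure D3:**
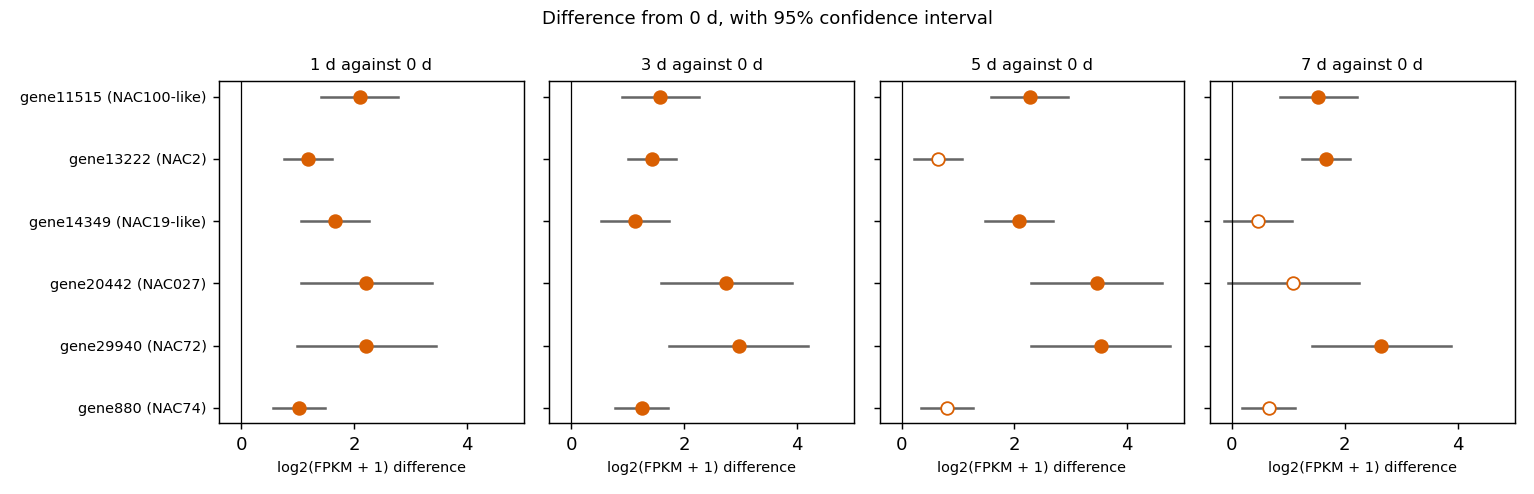
Difference from 0 d on the log2(FPKM + 1) scale (x axis) for 6 NAC genes (rows) at 1, 3, 5 and 7 d (panels), with 95% confidence intervals from limma. Filled points passed an adjusted p of 0.01 and a fold change of 2, which 6, 6, 4 and 3 genes did at 1, 3, 5 and 7 d.

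These calls depended on how the replicates were counted. When b and c were averaged and entered as 1 replicate, a choice made after seeing the data, 0, 0, 1 and 0 NAC genes were called by limma at 1, 3, 5 and 7 d against 0 d, and 6, 6, 6 and 4 were higher at an unadjusted p below 0.05, as were 15.2%, 20.7%, 23.3% and 15.1% of all genes in that fit. In that fit the calls over all genes fell to 130, 520, 1288 and 74, from 2027, 2775, 3601 and 1796. Leaving out 1 of 4 single libraries (0 d replicate b, 0 d replicate c, 1 d replicate a or 1 d replicate c) gave 3 NAC calls at 1 d. Over all genes these 4 fits called 1595, 1631, 1801 and 1634 at 1 d, against 2027. Without replicate a at 3 d and at 7 d the NAC counts were 6, 5, 4 and 3, and calls over all genes rose to 2364, 3545, 3900 and 1948.

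Whether the genes moved between heat days was less clear. An F-test over 1, 3, 5 and 7 d in the limma fit placed 0 of the 6 genes at an adjusted p of 0.01 or less, a level that 1.95% of all genes reached. The lowest values were 0.0148 for gene14349, 0.0229 for gene13222 and 0.047 for gene20442, and those of gene880, gene11515 and gene29940 were 0.19, 0.207 and 0.325. In the order of each gene's means, no pair of neighbouring heat days was called in any of the 6 genes. The step from 0 d to the next mean was called in gene11515 (0 d to 7 d) and gene29940 (0 d to 1 d) and not in the other 4 genes.

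From 1 d to 3 d, limma called 0 of 6 genes, against 0.221% of all genes, and 0 of 6 had an unadjusted p below 0.05, as 19.6% of all genes did. The differences ran from −0.54 for gene14349 to 0.75 for gene29940. In replicates b and c alone the NAC027 and NAC72 genes were higher at 3 d than at 1 d, by 1.36 (limma adjusted p = 6.91e-05) and 1.45 (adjusted p = 0.000202) on the log2 scale. That fit called 975 of all genes at this step, against 44 with all replicates. Since b and c may not be independent, its p-values may measure technical spread alone. Replicate a at 3 d lay below the 1 d libraries in both NAC genes, and with all replicates the differences were 0.53 and 0.75.

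From 3 d to 5 d, limma also called 0 of 6 genes, against 0.181% of all genes, and 3 of 6 had an unadjusted p below 0.05, as 15.4% of all genes did. Of these, gene14349 (difference 0.95, 95% confidence interval 0.35 to 1.56) and gene11515 (0.69, 0.01 to 1.38) were higher at 5 d and gene13222 (−0.79, −1.22 to −0.37) was lower. The 5 d libraries lay wholly above the 3 d libraries in gene14349, which 10.3% of all genes did, and wholly below them in gene880, which 12.8% did. The signs of gene20442 and gene29940 turned without replicate a at 3 d, from 0.71 to −0.0502 and from 0.57 to −0.15. In replicates b and c alone gene13222 was called lower, at −1.21 (limma adjusted p = 1.23e-05). That fit called 973 of all genes at this step, against 36 with all replicates, and its spread may likewise be technical alone.

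From 5 d to 7 d the genes parted. Gene14349 fell by 1.62 on the log2 scale (SE 0.279, limma adjusted p = 0.0086), from 7.25 to 1.65 FPKM, the only call of 6, against 0.296% of all genes called lower. That call was lost in 20 of 30 alternative settings (adjusted p from 0.000251 to 0.423). Gene20442 differed by −2.37 (95% confidence interval −3.53 to −1.21, adjusted p = 0.0226) and its 7 d libraries all lay below its 5 d libraries, at 0.188 of the 5 d mean. Gene13222 differed in the other direction, by 1.02 (0.60 to 1.45, adjusted p = 0.0123). Over the 6 genes the ranges did not overlap in 5, with 4 lower and 1 higher at 7 d, against 20.5% and 9.37% of all genes. Without replicate a at 3 d and at 7 d, gene20442 was called at −2.80 (limma adjusted p = 4.9e-05) and gene14349 at −1.73 (adjusted p = 0.00416), while gene13222 stood at 0.97 (adjusted p = 0.00575), under the fold threshold. That fit called 1198 of all genes in this step, against 136 in the fit of all 15 libraries. In the latter fit 3 of the 7 chlorophyll a-b binding protein genes were called higher in the same step, against 0.386% of all genes. The part of that shift in the NAC values was not tested.

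**Figure D4:**
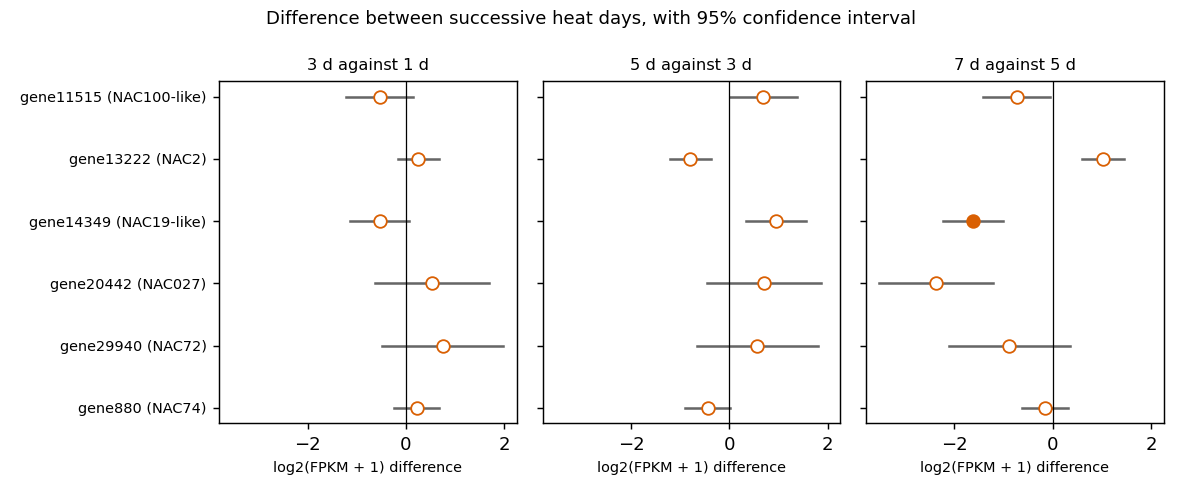
Difference between successive heat days on the log2(FPKM + 1) scale (x axis) for 6 NAC genes (rows), with 95% confidence intervals from limma. The filled point is gene14349 at 7 d against 5 d (−1.62), the only call among these 3 steps, and gene13222 was the only gene with a positive difference in that step (1.02).

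Other pairs of heat days gave 0 calls by limma for the 6 genes. At 5 d against 1 d, where 1.4% of all genes were called, 3 had an unadjusted p below 0.05 (27.2% of all genes), with gene20442 at 1.24 and gene29940 at 1.31 and gene13222 at −0.54. At 7 d against 1 d, where 0.371% of all genes were called, 2 did (18.1% of all genes), with gene14349 at −1.21 (limma adjusted p = 0.0444) and gene13222 at 0.48. At 7 d against 3 d, where 0.141% of all genes were called, 3 did (19.9% of all genes), with gene20442 at −1.66, gene14349 at −0.67 and gene880 at −0.60.

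Across the 15 libraries the 6 genes were alike to varying degrees. Pearson's r on log2(FPKM + 1) over the 15 pairs of genes ran from 0.178 (gene13222 and gene14349) to 0.869 (gene20442 and gene29940), and all points share the contrast of heated with control libraries. Gene20442 and gene29940 shared the low replicate a at 3 d and the high replicate a at 7 d. Gene13222 correlated at 0.332 with gene20442 and at 0.721 with gene880.

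For each NAC gene the pair of genes with the most similar profile over the 15 libraries is given as a description. For gene20442 these were gene33144 (r = 0.976) and Ziziphus_jujuba_newGene_2339 (r = 0.975), the latter with means of 1.93, 13.3, 19.8, 27.6 and 3.26 FPKM at 0, 1, 3, 5 and 7 d. For gene29940 they were gene24209 (r = 0.972) and gene16216 (r = 0.964), and for gene11515 gene8028 (r = 0.978) and gene7636 (r = 0.973). For gene14349 they were gene1589 (r = 0.937) and gene2611 (r = 0.930), the latter annotated with the P-body, where messenger RNA is decapped and degraded. Gene13222 was closest to gene16326 (r = 0.951) and gene20908 (r = 0.922). The means of gene16326 ran 0.224, 5.42, 5.05, 1.03 and 7.42 FPKM and thus had the same dip at 5 d and high at 7 d. Gene880 was closest to gene28694 (r = 0.964), annotated as the ethylene-responsive transcription factor RAP2-4, and to gene20636 (r = 0.949). Gene28694 had means of 77.8, 194, 254, 194 and 152 FPKM and, like gene880, its highest mean at 3 d.

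Of 4 further annotated NAC genes in the table, limma called 0 in each of the 10 comparisons between time points. Over all genes 0.141% to 18.1% were called in these comparisons, so 0 of 4 sets these genes little apart. At 1 d against 0 d 2 had an unadjusted p below 0.05, as 43.8% of all genes did. Gene10117, annotated as NAC25, stood at 39.8 ± 5.77 FPKM at 0 d and between 32.6 and 37.4 on average under heat. Gene26274 and gene27629, both annotated as NAC100 like gene11515, had means of 0.443 and 0.543 FPKM at 0 d and of 1.34 and 1.22 at 1 d (limma adjusted p = 0.0597 and 0.0304). The log2(FPKM + 1) scale understates fold changes at such low levels. How reads shared between these similar NAC100 genes were counted was not examined. Gene28055, annotated as NAC25 or NAM-B1, stood at 1.20 ± 0.448 FPKM at 0 d and at 0.350, 0 and 0 in the 3 libraries of 5 d (difference −0.97, adjusted p = 0.00297, just under the fold threshold). At 1 d against 0 d the median difference was 0.29 for these genes and 1.89 for the 6. This gap is a description, since the 6 had been listed as higher at 1 d in these libraries. The 4 further genes had been taken from annotation in the study's tables, and these tables mostly list genes that changed in its other cultivar. A newly assembled gene annotated as NAC72, Ziziphus_jujuba_newGene_7074, was not analysed here.

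Genes gene7895 and gene7954 are named after NAC in the study's tables but match a protein with a CRM domain, which binds RNA, so they were kept apart. Gene7954 was called higher at 3 d (5.36 ± 1.93 FPKM at 0 d and 14.7 ± 2.58 at 3 d). Gene7895 was called higher at 5 d than at 0 d (5.17 ± 1.43 and 15.1 ± 3.11 FPKM), and also than at 1 d (log2 difference 1.46, limma adjusted p = 0.000918). Unlike the 6 NAC genes, gene7895 passed the F-test over heat days (adjusted p = 0.00326).

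Because several of the 6 Arabidopsis namesakes act in ABA signalling, 7 ABA genes annotated in the study's tables were set beside them. These tables mostly list genes that changed under heat, in part in these same libraries. Counts of the 7 against 0 d are therefore a description. After 1 d of heat limma called 3 of the 7 higher (4.49% of all genes) and none lower (5.68% of all genes). After 3 d it called 3 higher (7.53%) and 1 lower (6.39%). After 5 d it called 4 higher (9.28%) and 2 lower (8.79%), and after 7 d 2 higher (4.14%) and none lower (4.88%). In the 3 steps between successive heat days limma called 0 of them, and 2, 3 and 4 had an unadjusted p below 0.05, as 19.6%, 15.4% and 27.5% of all genes did. The ABA-responsive element binding factor ABF2 (gene12214), a transcription factor that acts downstream of the hormone, rose from 71.0 ± 4.60 FPKM at 0 d to 185 ± 21.5 at 1 d and 274 ± 17.5 at 5 d. A pair of abscisic stress ripening genes, gene13771 and gene13772, was called higher at all 4 heat days, with gene13771 at 194 ± 25.3 FPKM at 0 d and 706 ± 26.9 at 1 d. The PP2C phosphatase gene2621, whose class holds ABA signalling off, was called higher at 5 d (35.3 ± 0.137 and 76.3 ± 11.4 FPKM).

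Some ABA genes on the receptor and breakdown side were called lower. The receptor gene PYL2 (gene12357) fell from 8.98 ± 1.13 FPKM at 0 d to 2.85 ± 0.119 at 3 d and 2.54 ± 0.998 at 5 d, both called. At 7 d it stood at 3.59, 9.03 and 8.06 FPKM in replicates a, b and c and overlapped the controls (difference −0.41, limma adjusted p = 0.25). The ABA 8'-hydroxylase gene12220, which inactivates the hormone, was called lower at 5 d (21.2 ± 4.88 and 8.95 ± 2.02 FPKM) but stood at 27.5 ± 10.7 at 3 d. The 9-cis-epoxycarotenoid dioxygenase gene1854, of the rate-limiting step of ABA synthesis, was not called in any comparison. It stood at 0.319 ± 0.204 FPKM at 0 d, and at 15.6, 0.936 and 0.768 in replicates a, b and c of 7 d. Replicate a of 7 d was thus high in gene1854 as in gene20442 (16.0, 6.20 and 5.63 FPKM), gene29940 (17.4, 7.63 and 7.34 FPKM) and gene2621 (84.4, 41.7 and 40.0 FPKM). That library was also high in gene13771 (767, 350 and 331 FPKM), gene12214 (189, 125 and 122) and gene13772 (115, 72.7 and 44.3). It was low in PYL2 and in the NAC gene gene10117 (17.9, 41.6 and 41.3 FPKM). In gene11515 and gene13222 it stood at 1.06 and 1.12 times the mean of b and c.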

How the data were processed

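Leaf RNA of ‘HS’ had been sequenced in 15 libraries, 3 at each of 0, 1, 3, 5 and 7 d. The authors trimmed the reads (Trimmomatic 0.36 and FastQC, per the submitters' processing notes), aligned them (Bowtie 2, TopHat 2), built transcripts (Cufflinks) and deposited 1 FPKM value for each gene in each library. The genome build and the versions of the mappers are not given in the sources used here. FPKM is scaled for gene length and library size and holds no counts, so no count test was run and precision comes from the replicates alone. The labels and the paper's methods name different extraction kits and instruments. Time points and replicate letters come from the labels.

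The genes that reached 1 FPKM in at least 3 libraries were fitted on the log2(FPKM + 1) scale by limma (version 3.58.1, R 4.3.3; lmFit and eBayes with an intensity trend, time point as the only term, 10 residual degrees of freedom), with the thresholds of the paper's methods. Descriptions and plots used Python 3.11.15, matplotlib 3.10.9, pandas 2.3.3 and numpy 2.4.6. The fit was first tested on simulated data. The genes described, the lists and the tests were chosen with earlier results of these data known. The genes named are the 6 NAC genes, the 2 most similar profiles of each, and the lists of other NAC, ABA and chlorophyll a-b binding protein genes. Of the LOC names of the 6 genes, 4 were found in a RefSeq table of another assembly. No sequence or coordinate was used. P-values measure the spread between these libraries, which may be technical.

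Alternatives were a pseudocount of 0.1, no filter, median-of-ratios or quantile scaling, fits of only the 6 libraries compared or of the 12 without 7 d, no trend, a term for the replicate letter or for a against b and c, other thresholds (adjusted p of 0.05, or no fold limit), and leaving out each letter or library in turn. Averaging b and c, and leaving out replicate a at 3 d and 7 d, were added after seeing the data.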

Additional observations from a re-analysis of the deposited data

How the results depend on the processing

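Of 1278 log2 differences of the 6 NAC genes recomputed over 7 comparisons and all alternatives, 1127 kept direction and side of the thresholds, 127 lost the call, 18 gained one and 6 turned sign, all uncalled. The counts called against 0 d were most dependent on the replicates. With b and c averaged they were 0, 0, 1 and 0 at 1, 3, 5 and 7 d, in a fit with fewer samples. Fits without 1 library or 1 letter gave 0 to 6, 0 to 6, 0 to 4 and 0 to 3. All letter-b libraries left out gave 0 at each of these days and all letter-c libraries left out 0, 0, 1 and 0, while the count at 1 d was 3 without any 1 of the 0 d replicates b and c and the 1 d replicates a and c. Calls over all genes also fell, to 81, 401, 974 and 65 without letter b and 109, 442, 1125 and 50 without letter c. At an unadjusted limma p below 0.05, 6, 6, 6 and 4 NAC genes were higher without b (14.6%, 19.9%, 21.8% and 14% of all genes). Without c these were 6, 6, 6 and 3 (14.4%, 19.8%, 22.7% and 15.1% of all genes). In the fit of the 6 libraries compared 2 NAC genes passed at 3 d, with 2373 calls over all genes, against 2775 in the main fit. From 1 d to 3 d the fits without a library or letter ranged from 0 to 2, from 3 d to 5 d from 0 to 1 (1 without replicate a of 5 d) and from 5 d to 7 d from 0 to 4 (2 without replicate a of 7 d, 3 without replicate a of 3 d). For 7 d against 5 d the count was 0 with a pseudocount of 0.1, no filter, median-of-ratios scaling, only the 6 libraries compared, the replicate block, or b and c averaged, 3 at an adjusted p of 0.05, and 2 without replicate a at 3 d and 7 d. In these fits with a count of 0, 3 to 5 genes had an unadjusted p below 0.05, as 9.97% to 28.3% of all genes did. With quantile normalization the call at 7 d against 5 d passed from gene14349 to gene13222.

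The values that turned sign were gene29940 at 5 d against 3 d (−0.10 without replicate a, −0.15 without replicate a of 3 d alone or of 3 d and 7 d, highest without a library 0.98), gene20442 in the same step (−0.0502 under both of the latter, highest 1.10) and gene880 at 7 d against 5 d (0.0347 without replicate a of 5 d, lowest −0.33). The replicate block changed no other count by over 1.5 times, and gene20442 and gene29940 lost their calls at 1 d under it. The letters paired the samples weakly at most. Deviations of same-lettered libraries correlated at −0.10 to 0.12 for a, −0.05 to 0.09 for b and −0.05 to 0.09 for c, 1 of 30 values being over 0.1. A library was closest to its own letter at another time point in 31 of 60 cases, and the count without pairing was not computed. Median-of-ratios scaling moved the median of all genes at 3 d against 0 d from 0.12 to 0.00433. Over all genes, the steps between heat days depended on the setting, with 44, 36 and 136 calls, against 6, 6 and 6 in fits of 6 libraries, 175, 141 and 624 at an adjusted p of 0.05 and 975, 973 and 2117 without replicate a. Against 0 d, no minimum fold change gave 4092, 5422, 6602 and 3796 calls. Without counts, the precision of a single FPKM, above all below 1, is unknown.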
